A study of Mus musculus with 4 samples.

Results

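Spp1, Ibsp, Dmp1 and Mepe are 4 of the 32285 genes counted in these libraries, and they were chosen by name, not by their level. They belong to the small integrin-binding ligand N-linked glycoproteins, acidic phosphoproteins that bone and tooth cells secrete into the mineralizing matrix, and all 4 symbols were found in the files. The libraries were single-cell RNA profiles of limb bone marrow cells from C57BL/6 mice at postnatal day 12, sorted as CD45/Ter119 negative, DAPI negative and Calcein-AM positive. There were 2 mutant and 2 control libraries. Mutant 1 was labelled Prx1-cre;Mettl3-fl/fl, mutant 2 was labelled only as mutant, and the controls carried no further genotype label. Prx1-cre acts in the limb mesenchyme, from which bone, cartilage and marrow stromal cells descend, and not in endothelial or blood cells. Mettl3 encodes the enzyme that writes N6-methyladenosine on RNA. The sort drew on 3 control and 3 mutant mice per the labels, and the labels do not say which mice went into which library. The spread between libraries, and the p-values that rest on it, may therefore be partly technical.

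Each of the 4 proteins has its own place in mineralized tissue. Spp1 encodes osteopontin, which binds cells through integrins and CD44 and, when phosphorylated, slows crystal growth. Ibsp encodes bone sialoprotein, made by osteoblasts at the onset of mineralization and able to nucleate crystals. Dmp1 encodes dentin matrix protein 1, made mainly by osteocytes, and Mepe encodes matrix extracellular phosphoglycoprotein, an osteocyte product whose acidic peptide holds back mineralization. The kinase encoded by Fam20c phosphorylates the family, and the endopeptidase encoded by Phex cuts the acidic peptides.

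The genes lie on the plus strand of 1 stretch of mouse chromosome 5, within 238 kb of mm10 by the GENCODE M21 annotation. Dmp1 (ENSMUSG00000029307) spans chr5:104202613-104214102, Ibsp (ENSMUSG00000029306) chr5:104299171-104311469, Mepe (ENSMUSG00000053863) chr5:104325329-104338611 and Spp1 (ENSMUSG00000029304) chr5:104435118-104441050. The remaining family member, Dspp (chr5:104170712-104180127), which encodes a tooth matrix protein, had no UMI in bone-gated cells of any library. The 150 bases before each RefSeq start site are shown because the genes are neighbours that were measured in the same cells. They are RefSeq sequences of GRCm38.p6, read 5′ to 3′ on the plus strand, from chr5:104434961-104435110 for Spp1, chr5:104299137-104299286 for Ibsp, chr5:104202467-104202616 for Dmp1 and chr5:104325179-104325328 for Mepe. RefSeq gives 2 start sites each for Spp1 and Dmp1, and the one nearest the GENCODE start was taken. The RefSeq start of Ibsp lies 116 bases downstream of the GENCODE start given above, so that 116 of the 150 bases shown, with the marked ATTGG, fall inside the gene as GENCODE draws it. Capitals mark 3 letter patterns, searched on both strands: the CCAAT box (CCAAT or ATTGG), the RUNX core (ACCACA or TGTGGT) and the AT-rich TTTAAA.
Spp1: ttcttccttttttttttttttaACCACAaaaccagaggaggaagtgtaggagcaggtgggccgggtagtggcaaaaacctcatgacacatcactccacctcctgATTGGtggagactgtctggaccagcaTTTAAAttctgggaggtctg
Ibsp: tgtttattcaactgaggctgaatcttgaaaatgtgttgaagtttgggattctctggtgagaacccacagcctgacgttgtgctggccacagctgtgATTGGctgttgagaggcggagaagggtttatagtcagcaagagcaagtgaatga
Dmp1: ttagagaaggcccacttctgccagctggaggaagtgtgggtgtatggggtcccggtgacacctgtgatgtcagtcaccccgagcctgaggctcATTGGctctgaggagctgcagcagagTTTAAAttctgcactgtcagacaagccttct
Mepe: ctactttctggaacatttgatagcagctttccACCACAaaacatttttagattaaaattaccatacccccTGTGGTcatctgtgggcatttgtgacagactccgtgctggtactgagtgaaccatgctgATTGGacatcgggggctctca
All 4 windows held the CCAAT box, in each case as ATTGG. Its first base lay 46 bases before the start in Spp1, 54 in Ibsp, 57 in Dmp1 and 21 in Mepe. Over the 32851 promoter windows of the same length, 24.5% held this pattern. The RUNX core occurred once in Spp1 and on both strands in Mepe, against 8.4% of all windows, and was not among these letters of Ibsp and Dmp1. TTTAAA was found in Spp1 and Dmp1, against 6.75% of all windows. These patterns were picked after the 4 sequences had been read, and a match is a description of the letters only.

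The libraries held 47390414 to 116863081 UMIs. After filtering (at least 1000 UMIs, at least 500 genes, at most 10% mitochondrial UMIs) and doublet removal, 2573 and 4419 mutant cells and 5538 and 3529 control cells were kept, with library medians of 10198 to 23809 UMIs per cell. Pairs of libraries shared 2 to 10 cell barcodes. Despite the sort, erythroid-gated cells numbered 94 and 910 in mutants and 3678 and 2524 in controls, and neutrophil-gated cells 204 and 837 in mutants and 23 and 29 in controls. Cells were placed in classes by marker genes, none of which was one of the 4 genes, with thresholds chosen once the levels of the markers were known. The bone gate took 1719 and 1252 mutant cells, against 262 and 43 control cells, and all 13 of its markers were present in every library. Levels are given as CPM, the UMIs of a gene scaled to a total of 1000000 UMIs of the cells in a gate, summed per library. Mettl3 itself had 3.82 and 6.16 CPM in bone-gated mutant cells, against 7.01 and 10.2 in control cells, a log2 difference of -0.97 ± 0.35 (SE) that did not pass the edgeR test (adjusted p = 0.0547). Its 3′ tags may lie outside the deleted part. The stromal gate took 94 and 29 mutant cells and 1005 and 48 control cells. The mutant cells in it fit the name poorly, with Cxcl12 at 2779 and 5128 CPM in mutant cells, against 20730 and 18000 in control cells.

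By CPM, Spp1 was higher in cartilage cells than in bone cells in every library, while of the bone, chondrocyte, stromal and endothelial gates the bone gate was highest for Ibsp, Dmp1 and Mepe, and all 4 genes were lower in stromal than in bone cells. Classes were compared within libraries by edgeR's quasi-likelihood test on the summed counts with library as a term, adjusted over all genes (Benjamini-Hochberg). Its log2 differences are on a TMM scale, which corrects for the few genes that fill much of a library, and so are not ratios of the CPM values.

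Chondrocyte-gated cells, recognised by cartilage genes such as Col2a1 and Acan, held 47180 and 39570 Spp1 CPM in mutants, against 32030 and 26460 in controls. Bone-gated cells held 44450 and 21760 in mutants, against 15250 and 15590 in controls. The summed chondrocyte level exceeded the bone level in every library, yet the log2 difference of 0.20 ± 0.74 (SE, 95% interval -1.36 to 1.77) did not pass the test (edgeR adjusted p = 0.871). In mutant 2 the median chondrocyte-gated cell held 38.2 Spp1 UMIs per 10000, under the 63.4 of the median bone-gated cell. In the other libraries the chondrocyte median was the higher one. Among the chondrocytes, those with hypertrophic markers (Col10a1, Ihh, Panx3) had 54610 and 49600 CPM in mutants, against 29190 and 39910 in controls. The other chondrocytes had 31110 and 19020 in mutants, against 34960 and 10390 in controls. These gates rest on 15 and 32 mutant and 18 and 13 control chondrocytes in all. Their summed bone markers were 1067 and 1200 CPM in mutants and 939 and 875 in controls, far under the 70340 to 234200 of bone-gated cells. Their cartilage markers differed by genotype. Acan was at 328 and 313 CPM in mutants and 2302 and 3136 in controls, and Col10a1 at 11070 and 13070 against 33000 and 42880. Sox9 was also lower in mutants, while Col2a1 overlapped, at 3346 and 5111 against 4016 and 4450. The part of this in the Spp1 levels was not tested.

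The other genes did not share this cartilage level. Of the 4 genes, 3 were lower in chondrocyte-gated than in bone-gated cells, where 15.2% of all 10266 genes tested were lower. Ibsp was at 923 and 168 CPM in mutant chondrocytes and 718 and 1092 in control chondrocytes, and its log2 difference from bone-gated cells was -4.29 ± 0.97 (edgeR adjusted p = 0.00378). Dmp1 was at 69.5 and 85.5 in mutant chondrocytes, against 247 and 59.7 in control chondrocytes, and Mepe at 89.3 and 42.7 in mutants, against 3.68 and 0 in controls. Their log2 differences from bone-gated cells were -3.08 ± 0.66 (edgeR adjusted p = 0.00258) for Dmp1 and -4.21 ± 0.61 (edgeR adjusted p = 1.12e-04) for Mepe.

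In stromal-gated cells all 4 genes were lower than in bone-gated cells, where 14.5% of genes were lower. Spp1 lay at 11300 and 1219 CPM in mutants and 1199 and 1019 in controls, and the level of mutant 1 stood apart from the other libraries. Ibsp was also highest in mutant 1, at 2362 and 532 in mutants and 705 and 584 in controls. Dmp1 was nearly missing, at 4.4 and 2.32 in mutants and 3.04 and 5.57 in controls, and Mepe held 4 and 3 UMIs in mutants and 2 and 0 in controls. The log2 differences from bone-gated cells were -3.94 ± 0.85 for Spp1, -4.29 ± 0.95 for Ibsp, -8.33 ± 0.88 for Dmp1 and -8.19 ± 0.72 for Mepe (edgeR adjusted p = 0.00288 or smaller). Mutant stromal-gated cells also carried more bone progenitor markers, 5932 and 4734 CPM against 2227 and 2533 in controls. Neutrophil markers summed to 85.4 and 19600 CPM in mutant stromal-gated cells, above the 10570 of the stromal markers in mutant 2, and to 3073 and 52.9 in control ones, and the part of either in the levels of the 4 genes was not tested.

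**Figure D1:**
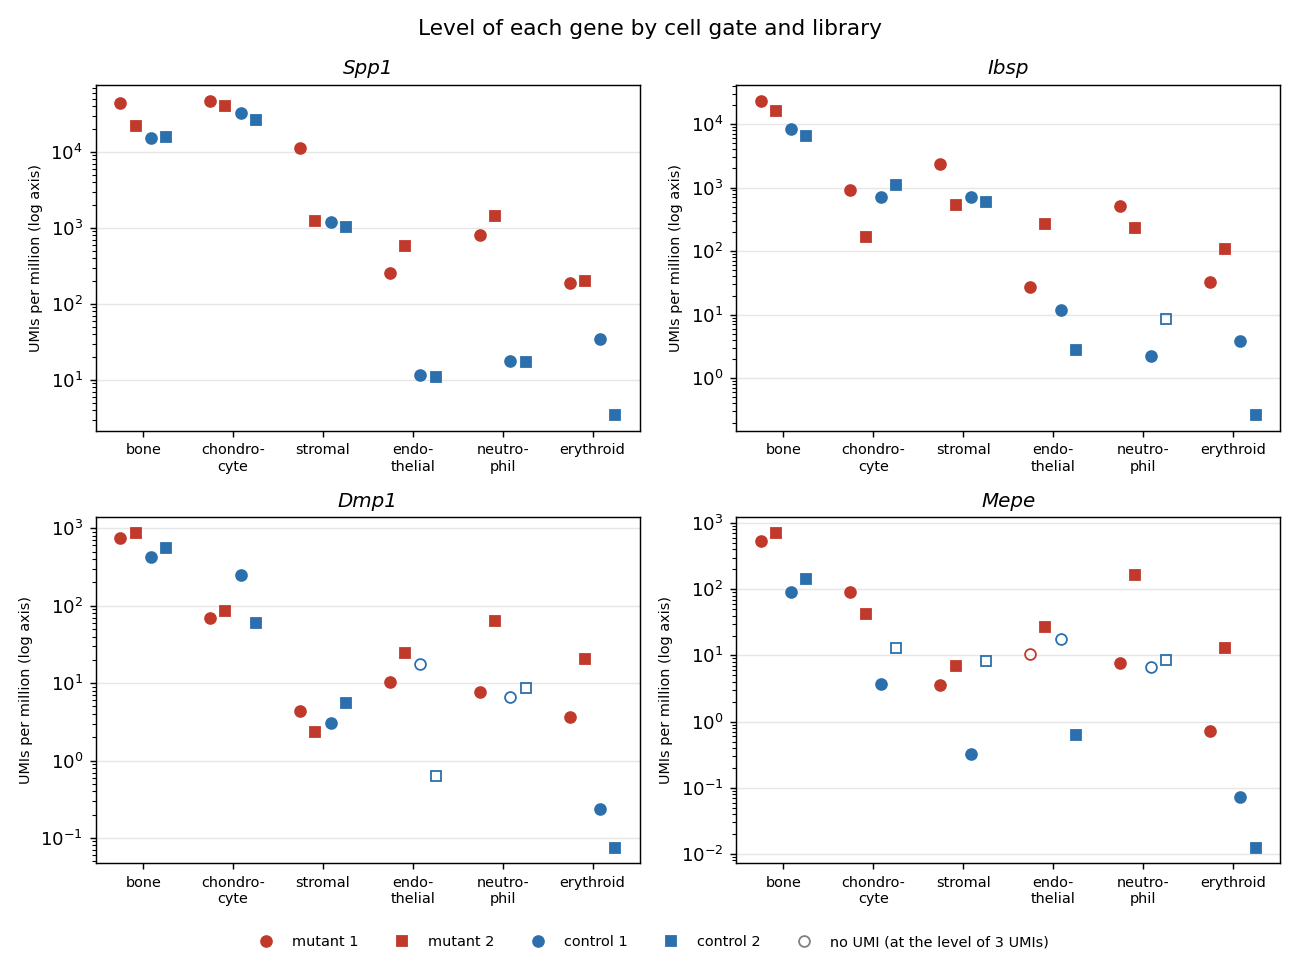
Level of each gene, as CPM on a log axis, in 6 cell gates for mutant 1, mutant 2, control 1 and control 2; each point is 1 library, and open points are libraries with no UMI, drawn at the level that 3 UMIs would give. Summed Spp1 is higher in chondrocytes than in bone cells in every library, though in mutant 2 the median chondrocyte is lower. Of the gates drawn, Ibsp, Dmp1 and Mepe are highest in the bone gate in every library. In endothelial, neutrophil and erythroid cells the mutant points for Spp1 and Ibsp lie above the control points.

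Within the bone gate, cells were divided into mature osteoblasts (Bglap, Ifitm5 and 4 further markers), osteocytes (Phex, Irx5, Sost and 6 further markers) and bone progenitors (Col12a1, Olfml2b, Tnn and 4 further markers), and 24.1%, 20.2%, 19.5% and 14% of bone-gated cells (mutant 1, mutant 2, control 1, control 2) met none of these gates. The osteocyte gate took 135 and 103 mutant cells and 9 and 2 control cells, which is 7.85% and 8.23% of bone-gated cells in mutants and 3.44% and 4.65% in controls. Its late marker Sost was scarce, with 35 and 178 UMIs in mutants and 1 and 0 in controls, and Fgf23 had none. Summed bone markers in this gate were 23020 and 36680 CPM in mutants and 173900 and 126900 in controls. Control 2 gave only 2 such cells and was left out of the tests of osteocytes, which need 5 cells.

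Spp1, Dmp1 and Mepe were highest in the osteocyte gate in all 4 libraries. Ibsp was highest in mature osteoblasts in both mutants, in progenitors in control 1 and in the osteocyte gate of control 2. All 4 genes differed between osteocyte-gated and mature osteoblast-gated cells: 3 were higher, where 21.4% of all 10285 genes tested were higher, and 1 was lower, where 25.3% were lower. Mepe separated the gates most. Osteocyte-gated cells held 8383 and 11600 Mepe CPM in mutants and 4307 and 6730 in controls, and mature osteoblasts held 120 and 59.2 in mutants and 5.34 and 0 in controls. The log2 difference, osteocyte over mature osteoblast, was 7.45 ± 0.53 (SE; edgeR adjusted p = 3.21e-09).

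Dmp1 stood at 9411 and 9724 CPM in mutant osteocyte-gated cells and 8803 and 6861 in control ones. In mature osteoblasts it was at 439 and 416 in mutants and 222 and 500 in controls, giving a log2 difference of 4.15 ± 0.62 between the gates (edgeR adjusted p = 2.10e-05). Osteocyte levels of Dmp1 thus lay above every mature osteoblast level. The control levels rest on 9 and 2 cells, and 1 cell held 87.9% of the Dmp1 UMIs of control 2. Spp1 made up 16.4% and 10.9% of all UMIs in mutant osteocyte-gated cells and 13.7% and 13.5% in control ones. In mature osteoblasts it was at 3.69% and 1.28% in mutants and 0.908% and 0.883% in controls, and the log2 difference between the gates was 2.67 ± 0.33 (edgeR adjusted p = 1.78e-06).

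Ibsp ran the other way. Mature osteoblasts held 29400 and 18730 Ibsp CPM in mutants and 8605 and 5545 in controls. Osteocyte-gated cells held 11310 and 6469 in mutants and 7506 in control 1, and the 2 cells of control 2 held 26310. The log2 difference, osteocyte over mature osteoblast, was -1.44 ± 0.29 (edgeR adjusted p = 4.66e-04). In single osteocyte-gated cells the median Ibsp level was 7.51 and 8.83 per 10000 UMIs in mutants, against 51.9 and 175 in controls. The control medians rest on 9 and 2 cells, and in control 2 only 1 of the 2 cells held any Ibsp UMI. In mutants the median cell thus lay far under the summed level.

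In bone progenitors 1 of the 4 genes, Ibsp, differed from mature osteoblasts by the test, at 15680 and 9951 CPM in mutants and 10820 and 2896 in controls. In control 1 its CPM was above the 8605 of mature osteoblasts, and in the other libraries below. Its log2 difference, progenitor over mature osteoblast, was -1.22 ± 0.26 (edgeR adjusted p = 0.0010, where 16.4% of genes were lower). Spp1 in progenitors was at 37360 and 23960 in mutants and 39000 and 18350 in controls, and its log2 difference of 0.39 ± 0.29 did not pass (edgeR adjusted p = 0.335). Dmp1 differed by -1.03 ± 0.55 (edgeR adjusted p = 0.165) and Mepe by -0.08 ± 0.43 (edgeR adjusted p = 0.913). Without the filter on low counts Spp1 (0.44) and Dmp1 (-0.96) passed (edgeR adjusted p = 0.0483 and 1.14e-04), and without control 1 Dmp1 passed at -1.96 (edgeR adjusted p = 0.00147). Mepe had 126 and 79.4 CPM in mutant progenitors and no UMI in the 25 and 7 control progenitors, where 3 UMIs would have given 9.4 and 34.8. Against these progenitors, osteocyte-gated cells were higher in Spp1 by 2.29 ± 0.32, in Dmp1 by 5.18 ± 0.60 and in Mepe by 7.53 ± 0.55 (log2; edgeR adjusted p = 9.12e-06 or smaller, where 20.5% of genes were higher), and Ibsp differed by -0.22 ± 0.28 (edgeR adjusted p = 0.556).

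**Figure D2:**
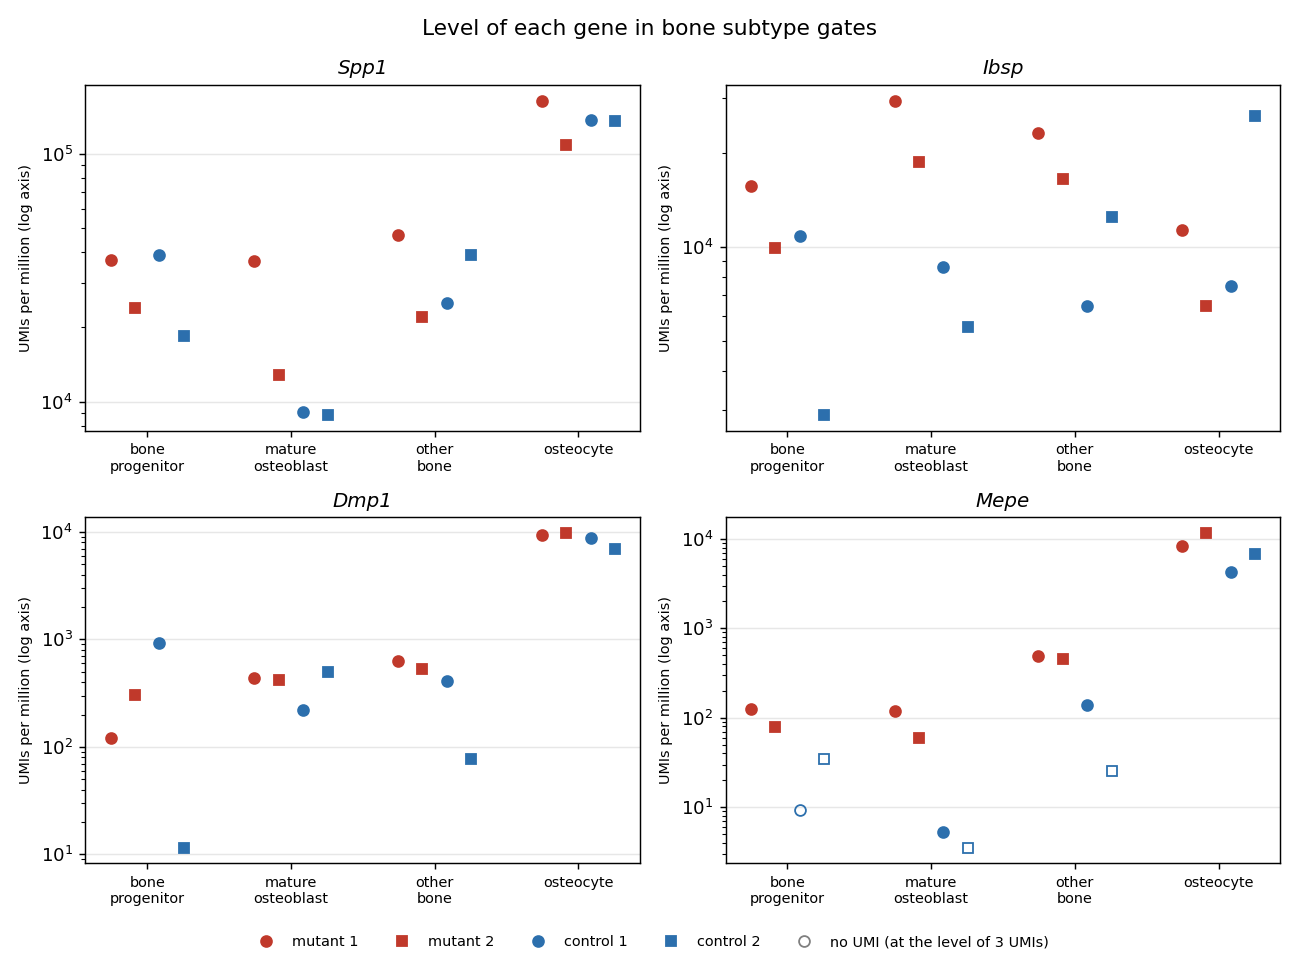
Level of each gene, as CPM on a log axis, in the bone subtype gates; each point is 1 library, mutants left of controls, and open points mark libraries with no UMI at the level of 3 UMIs. Dmp1 and Mepe are highest in the osteocyte gate in every library, and Ibsp is highest in mature osteoblasts in both mutants only.

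The subtypes therefore supplied very different parts of each gene's UMIs. The osteocyte gate held 61.7% and 79.7% of the Mepe UMIs of bone-gated cells in mutants and 71.3% and 100% in controls. The 100% of control 2 was 154 UMIs in 1 cell. For Dmp1 the osteocyte gate held 49.5% and 54.3% in mutants and 31.9% and 26.6% in controls. For Ibsp it held 1.92% and 1.98% in mutants and 1.37% and 8.59% in controls, and mature osteoblasts held 55.4% and 62.6% in mutants and 79.0% and 67.1% in controls. Spp1 was spread over all subtypes, with 14.6% and 24.1% in the osteocyte gate of mutants and 13.7% and 18.5% in that of controls.

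**Figure D3:**
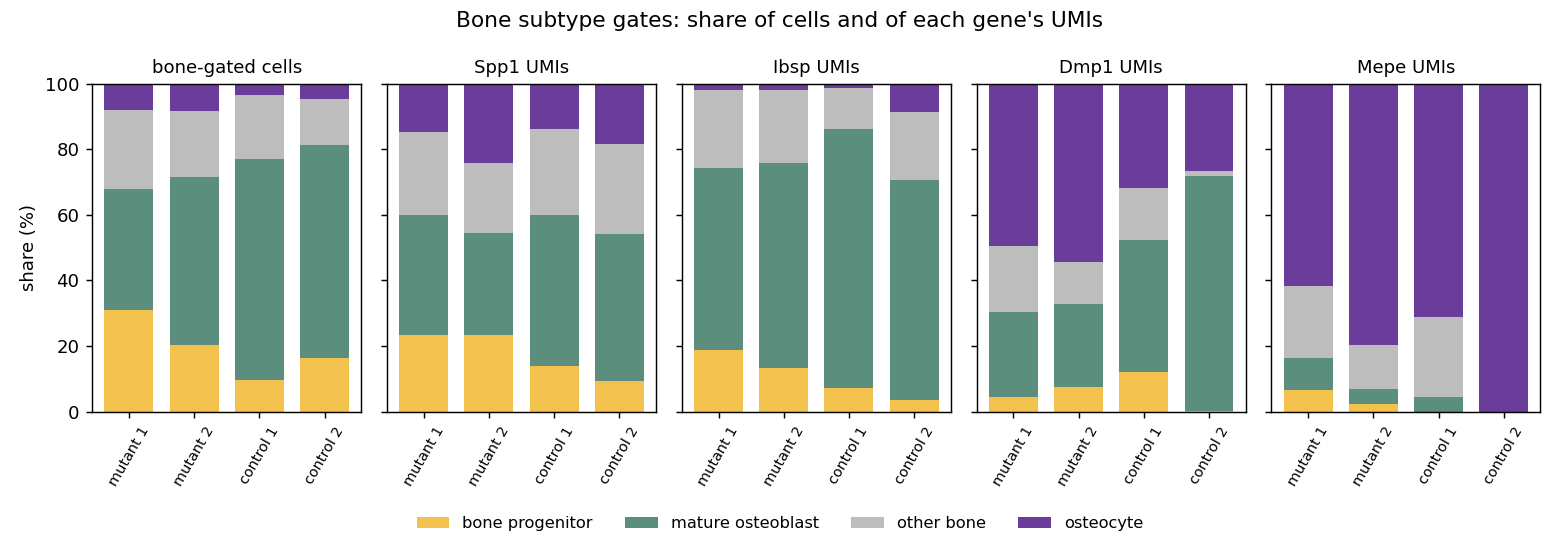
Share, in percent, of bone-gated cells (left panel) and of each gene's UMIs in bone-gated cells (other panels) that fall in each subtype gate, 1 bar per library. Osteocyte-gated cells are 3.44% to 8.23% of the cells and hold 61.7% to 100% of Mepe UMIs, against 1.37% to 8.59% of Ibsp UMIs. The 100% is 1 cell of control 2.

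Joint detection in single cells was read at equal depth. With every cell thinned to 1000 UMIs, Ibsp was found in 78.5% and 79.1% of the Dmp1-positive bone-gated cells of mutants and 83.3% and 75% of those of controls. In mutants, Dmp1 was found in 17.6% and 22.0% of cells with Ibsp, against 51.7% and 42.7% of cells without it. In controls the same shares were 14% and 20.7% of cells with Ibsp, against 12.8% and 14.3% of cells without it. Mepe was found in 39.1% and 35.3% of Dmp1-positive mutant cells, against 7.1% and 4.33% of Dmp1-negative ones. In controls it was found in 22.2% and 12.5% of Dmp1-positive cells, against 0.885% and 0% of Dmp1-negative ones, on 10 cells and 1 cell with Mepe. All 4 genes were found together in 4.48% and 4.63% of mutant and 1.91% and 0% of control bone-gated cells, and none of them in 0.407% and 1.68% of mutant and 3.82% and 11.6% of control cells. These shares count cells with a UMI at this depth, not all cells that express a gene.

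Between genotypes, all 4 genes were higher in mutant than in control bone-gated cells. The test was edgeR's quasi-likelihood test with processing batch and genotype as terms, and 11.5% of the 12835 genes tested were called higher. It leaves 1 residual degree of freedom among the 4 libraries and draws the rest of its precision from the spread of all genes. Mepe stood at 537 and 704 CPM in mutants and 92.3 and 143 in controls, with no overlap, and its log2 difference was 2.27 ± 0.18 (SE; edgeR adjusted p = 7.43e-08). In batch 1 it was 2.42 and in batch 2 it was 2.11. The control 2 level rests on 154 Mepe UMIs, all in 1 of its 43 bone-gated cells. In control 1, the 9 osteocyte-gated cells held 385 of the 540 Mepe UMIs. Ibsp stood at 23320 and 15810 in mutants and 8364 and 6528 in controls, a log2 difference of 1.22 ± 0.11 (edgeR adjusted p = 4.80e-07), with 1.36 in batch 1 and 1.09 in batch 2. Both genes moved alike in the batches.

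Spp1 and Dmp1 moved less. Spp1 stood at 44450 and 21760 in mutants and 15250 and 15590 in controls, a log2 difference of 0.86 ± 0.17 (edgeR adjusted p = 0.00124). Most of this came from batch 1, where the log2 difference was 1.42, against 0.295 in batch 2, and without mutant 1 it was 0.24. Dmp1 stood at 752 and 865 in mutants and 422 and 551 in controls, a log2 difference of 0.59 ± 0.16 (edgeR adjusted p = 0.0130), with 0.712 in batch 1 and 0.467 in batch 2. DESeq2 did not call Spp1 (adjusted p = 0.703), and without the batch term edgeR called only Mepe (adjusted p = 0.00275), with Spp1 at adjusted p = 0.334, Ibsp at 0.163 and Dmp1 at 0.227. None of the 4 calls held when any 1 library was left out, with edgeR adjusted p of 0.0505 to 0.16 for Mepe and larger values for the others, while every log2 difference stayed above 0. Those fits carry no batch term.

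The subtype makeup of the bone gate moved with these differences. Osteocyte-gated cells were a larger share of the bone-gated cells in mutants, and without them, a comparison added after the data were seen, Dmp1 differed by 0.08 ± 0.18 (log2; edgeR adjusted p = 0.792). Spp1 then differed by 0.85 ± 0.14 (edgeR adjusted p = 1.11e-05), Ibsp by 1.32 ± 0.11 (edgeR adjusted p = 9.82e-13) and Mepe by 3.54 ± 0.33 (edgeR adjusted p = 2.63e-11). For Mepe this rests on few control UMIs. Control 2 then held none, and control 1 held 24 in mature osteoblasts and 131 in bone-gated cells of no subtype gate. Control levels reweighted to the subtype makeup of the mutants gave 206 Mepe CPM in batch 1 and 325 in batch 2, under the 537 and 704 measured in mutants and above the 92.3 and 143 measured in controls. For Dmp1 the same reweighting gave 804 in batch 1 and 615 in batch 2, against 752 and 865 measured in mutants. For Spp1 it gave 26340 in batch 1 and 23370 in batch 2, against 44450 and 21760 measured in mutants, so that in batch 2 the reweighted control level lay above the mutant level. For Ibsp it gave 8667 and 7455, against 23320 and 15810 measured in mutants and 8364 and 6528 in controls. The reverse, mutant levels reweighted to the subtype makeup of the controls, lay above the measured control levels for each gene in each batch. In batch 1 and batch 2 it gave 40480 and 16770 for Spp1, against 15250 and 15590 measured in controls. For Dmp1 it gave 590.5 and 617.4, against 421.9 and 550.5. It gave 27350 and 17520 for Ibsp and 305.9 and 349.3 for Mepe. Both reweightings rest on 9 and 2 control osteocytes.

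Levels of the gate's own markers moved too. The 13 bone markers summed to 70340 and 91580 CPM in mutant and 186400 and 234200 in control bone-gated cells, led by Col1a1 at 34200 and 44320 in mutants and 88700 and 93020 in controls. Bglap, which encodes osteocalcin, was at 3370 and 5679 in mutants and 17020 and 41740 in controls. Progenitor markers were at 3204 and 3421 in mutants and 884 and 1002 in controls, and neutrophil markers at 97.8 and 599 in mutants and 4.96 and 7.45 in controls. The part of these cell differences in the levels of the 4 genes was not tested.

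**Figure D4:**
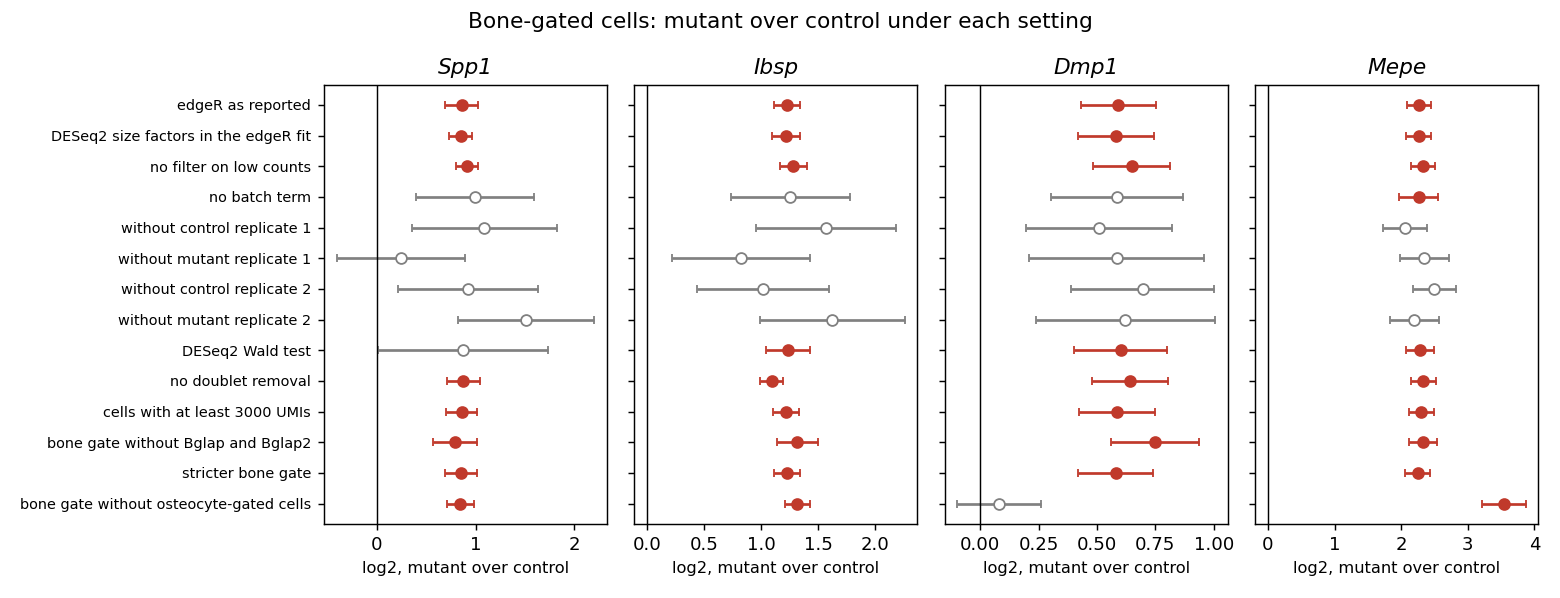
Log2 difference, mutant over control, in bone-gated cells with its standard error for each gene, in the fit as reported and under each alternative setting; filled red points have an adjusted p under 0.05. All points lie above 0, Mepe keeps the largest difference, and the 4 settings that leave out a library have open points for every gene.

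Mature osteoblasts, the 1 subtype with at least 20 cells in every library (635 and 643 in mutants, 177 and 28 in controls), were tested alone. In these cells 3 of the 4 genes were higher in mutants, where 12.1% of the 11666 genes tested were higher. Ibsp stood at 29400 and 18730 CPM in mutants and 8605 and 5545 in controls, a log2 difference of 1.70 ± 0.19 (edgeR adjusted p = 6.77e-17). Mepe stood at 120 and 59.2 in mutants and 5.34 and 0 in controls (edgeR adjusted p = 1.64e-43), where the 28 cells of control 2 had no UMI and 3 would have given 3.54. The 59.2 of mutant 2 lay under the 162 Mepe CPM of its neutrophil-gated cells, while in mutant 1 those cells held 7.77. Spp1 stood at 36890 and 12840 in mutants and 9080 and 8833 in controls, a log2 difference of 1.21 ± 0.19 (edgeR adjusted p = 2.09e-08), but 2.05 in batch 1 and 0.371 in batch 2. Dmp1 overlapped between genotypes at 439 and 416 in mutants and 222 and 500 in controls (log2 difference 0.30 ± 0.19, 95% interval -0.08 to 0.68, edgeR adjusted p = 0.286). Here the fit gave all genes of like abundance 1 spread, so these p-values rest on it, and without the batch term Spp1 (adjusted p = 0.182) and Ibsp (adjusted p = 0.0835) were no longer called by edgeR. Neither was called with any 1 library left out, with log2 differences of 0.31 to 2.10 for Spp1 and 1.19 to 2.14 for Ibsp, while Mepe was called each time, and Dmp1 turned to -0.23 without control 1. Cell makeup was not held fixed by this gate. Mature osteoblast markers in it summed to 12700 and 17860 CPM in mutants and 32240 and 76980 in controls, progenitor markers to 1277 and 1424 in mutants and 352 and 372 in controls, and neutrophil markers to 68.0 and 589 in mutants and 5.79 and 5.9 in controls, and their part was not tested. In osteocytes the levels were not tested, since controls gave 9 and 2 cells.

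Summed over bone, stromal, chondrocyte and fibroblast gates, where stromal-gated cells were 94 of 1855 and 29 of 1314 cells in mutants and 1005 of 1288 and 48 of 104 in controls, all 4 genes were higher in mutants. The log2 differences were 1.83 ± 0.46 for Spp1, 2.41 ± 0.29 for Ibsp, 1.84 ± 0.24 for Dmp1 and 3.56 ± 0.26 for Mepe (edgeR adjusted p of 0.0259, 0.00164, 0.00209 and 2.28e-04 in that order), against 11.9% of 14057 genes called higher. Mepe was called whichever library was left out. Spp1 was called only without mutant 2, Ibsp only without either mutant, and Dmp1 only without control 2 or mutant 2. The bone gate held 89.7% and 82.3% of all Spp1 UMIs of kept cells in mutants and 77.7% and 56.3% in controls. For Ibsp these shares were 98.2% and 94.9% in mutants and 88.2% and 88.8% in controls. For Dmp1 they were lower in mutants, at 85.7% and 84.7%, against 95.4% and 91.9% in controls, and for Mepe they overlapped, at 82.6% and 80.1% in mutants and 97.3% and 77.0% in controls.

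The share of bone-gated cells with a UMI pointed the same way at equal depth. With each cell thinned to 1000 UMIs, Mepe was found in 13.7% (95% Clopper-Pearson interval 12.1 to 15.4) and 11.9% (10.2 to 13.8) of mutant cells and 3.82% (1.85 to 6.91) and 2.33% (0.0589 to 12.3) of control cells. At full depth, with medians of 20807 and 18747 UMIs in mutant and 21620.5 and 23660 in control bone-gated cells, it was found in 39.9% and 28.3% of mutant and 8.02% and 2.33% of control cells. Dmp1 was found in 20.5% and 24.4% of mutant and 13.7% and 18.6% of control cells. Ibsp was found in 91.4% and 88.0% of mutant and 82.1% and 67.4% of control cells, and Spp1 in 94.2% and 81.9% of mutant and 76.7% and 69.8% of control cells. At full depth the shares were 46.8% and 49.6% of mutant and 42.4% and 32.6% of control cells for Dmp1, 97.7% and 96.0% of mutant and 95% and 83.7% of control cells for Ibsp, and 99.8% and 97.1% of mutant and 94.7% and 83.7% of control cells for Spp1. For all 4 genes both mutant shares lay above both control shares. The exact two-sided permutation test gave p = 0.333 for each gene, the smallest value that 6 splits of 4 libraries allow. The intervals cover counting error only.

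**Figure D5:**
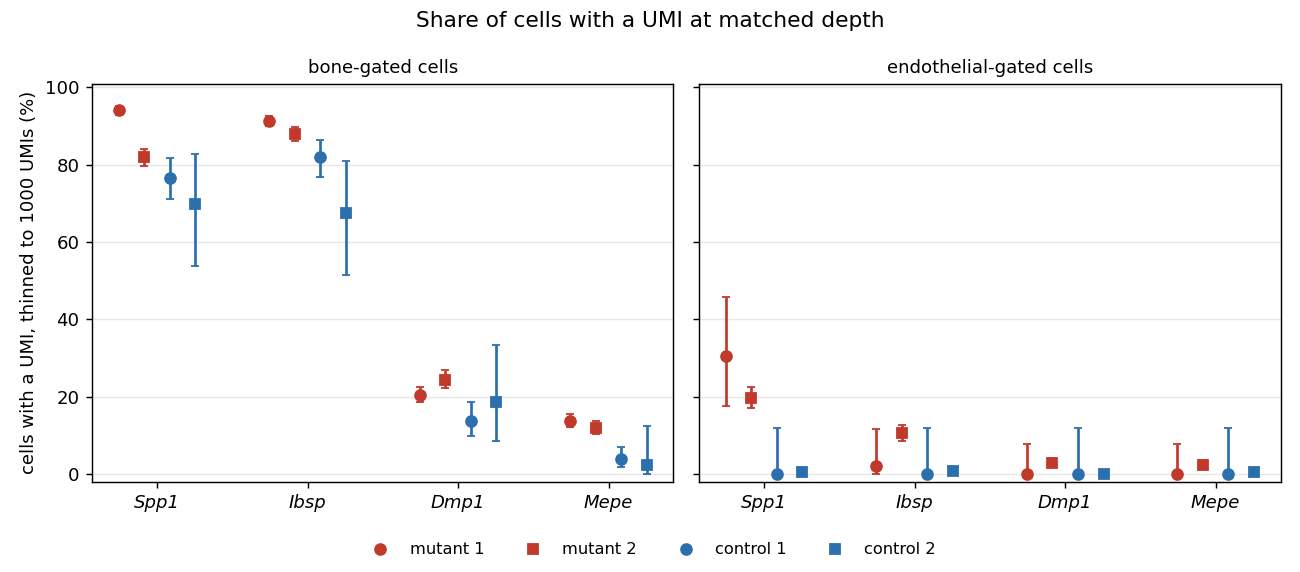
Share of cells with at least 1 UMI of each gene after thinning every cell to 1000 UMIs, in bone-gated cells (left panel) and endothelial-gated cells (right panel); points are libraries, mutants left of controls, and bars are 95% Clopper-Pearson intervals. In bone-gated cells both mutant points lie above both control points for each gene, and in endothelial-gated cells Spp1 reaches 30.4% and 19.6% in mutants, against 0% and 0.543% in controls.

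Endothelial cells lie outside the lineage of Prx1-cre. All 4 genes were lower in them than in bone-gated cells (edgeR adjusted p = 2.51e-05 or smaller), where 24.1% of 10266 genes were lower. Their median depth was 5761.5 and 10240 UMIs in mutants and 6320 and 8155 in controls. Spp1 in them was at 256 and 582 CPM in mutants and 11.7 and 11 in controls, and Ibsp at 27.7 and 268 in mutants and 11.7 and 2.75 in controls. Both were called higher in mutants, as was Dmp1, with log2 differences of 5.63 ± 0.30 for Spp1 and 6.27 ± 0.39 for Ibsp (edgeR adjusted p = 8.60e-74 and 1.45e-53, from a fit that gave all genes of like abundance 1 spread), where 2.31% of 10720 genes were called higher. Within batches the log2 difference of Spp1 was 4.46 in batch 1 and 5.73 in batch 2, and that of Ibsp was 1.25 in batch 1, on 8 mutant and 2 control UMIs, and 6.61 in batch 2. Without control 2, which gave 552 of the control cells, neither was called (edgeR adjusted p = 0.309 for Spp1 and 0.905 for Ibsp). Dmp1 was at 10.4 and 24.4 in mutants on 3 and 236 UMIs, and had no UMI in controls, where 3 UMIs would have given 17.5 CPM in control 1 and 0.635 in control 2; in batch 1 this sets no bound on the difference. Mepe had no UMI in mutant 1, 27.3 CPM in mutant 2, and 0 and 0.635 in controls, and did not reach the filter on low counts. The 13 bone markers moved with these genes in endothelial-gated cells, at 443 and 1691 CPM in mutants and 216 and 62.1 in controls. Neutrophil markers stood at 89.9 and 5368 CPM in mutants and 0 and 28.8 in controls in the same cells, and the part of either was not tested.

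Barcodes of 10 to 100 UMIs, which hold free RNA, could be read in 3 of the 4 libraries, since the counts of mutant 1 cover called cells only. Free RNA in mutant 2 held 14280 Spp1 CPM, against 2539 and 284 in controls, and 4042 Ibsp CPM, against 503 and 30.2 in controls. Dmp1 stood at 549 in mutant 2 and 89.4 and 4.48 in controls, and Mepe at 515 in mutant 2 and 8.78 and 1.12 in controls. The order of the 3 libraries was the same for each gene. Endothelial-gated cells of mutant 2 held 4.08% of the free RNA level for Spp1, 6.63% for Ibsp, 4.44% for Dmp1 and 5.3% for Mepe, and of genes outside the family, the collagen gene Col1a1 was at 5.62%, Bglap at 1.08% and the globin gene Hbb-bs at 1.45%. Bone-gated cells of mutant 2 held 21760 CPM of Spp1, 15810 of Ibsp, 865 of Dmp1 and 704 of Mepe, all above the free RNA level. Its mature osteoblasts held 12840 CPM of Spp1, 416 of Dmp1 and 59.2 of Mepe, under the free RNA level, and 18730 of Ibsp, above it. Mepe was also under the free RNA level in its progenitors, at 79.4 CPM, and in the bone-gated cells of no subtype gate, at 449. In its osteocyte gate Mepe was above it, at 11600. The part of free RNA in the bone-gated differences was not tested.

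Across the 35 sums of a class in a library, levels of the 4 genes followed each other to different degrees. Pearson's r of log2(CPM + 1) was 0.914 between Spp1 and Ibsp, 0.866 between Spp1 and Dmp1, 0.816 between Ibsp and Dmp1, 0.766 between Dmp1 and Mepe, 0.61 between Spp1 and Mepe and 0.549 between Ibsp and Mepe. These are descriptions, because sums of 1 library share its depth and free RNA. Among 6291 genes with a mean of at least 20 CPM, the patterns most like Spp1 were those of Ptgis (r = 0.966), Cspg4 (0.943) and Msi1 (0.938). For Ibsp they were Snhg18 (0.941), Sp7 (0.928) and Col11a1 (0.921), for Dmp1 Cystm1 (0.895), Dlx3 (0.878) and Bmp8a (0.86), and for Mepe Ctsw (0.808), Egr3 (0.798) and Dkk1 (0.742). Sp7, the osteoblast transcription factor gene, Cspg4 and Dkk1, which encodes a secreted Wnt inhibitor, were themselves gate markers.

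The genes that act on these proteins moved less uniformly in bone-gated cells. Over all genes tested the median log2 difference was 0.04, with 11.5% called higher and 8.88% called lower. Of 10 genes for the kinase, proteases and binding partners, 9 were tested and 1 rose, Mmp14, which encodes a membrane-bound matrix protease, at 301 and 440 CPM in mutants and 172 and 246 in controls (log2 0.67 ± 0.18, edgeR adjusted p = 0.0103). Fam20c was at 54.8 and 93.3 in mutants and 34.4 and 63.3 in controls (log2 0.47 ± 0.21, edgeR adjusted p = 0.120), and Phex at 214 and 337 in mutants and 199 and 296 in controls (log2 -0.01 ± 0.18, edgeR adjusted p = 0.979). The list's median log2 difference was 0.06.

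Of 10 receptor genes, 8 were tested, 3 rose and 1 fell, with a median of 0.19. Itgb5 rose by 1.01 ± 0.21 (log2; edgeR adjusted p = 0.00187), Itgb1 by 0.52 ± 0.16 (edgeR adjusted p = 0.0304) and Itga9 by 1.16 ± 0.36 (edgeR adjusted p = 0.0292), all encoding integrin subunits. Itga4 fell by 2.58 ± 0.61 (log2; edgeR adjusted p = 0.00536) on 12 and 49 UMIs in mutants and 8 and 13 in controls. Itgav, the partner of several of these subunits, was at 55.1 and 60.9 CPM in mutants and 41 and 52.2 in controls (edgeR adjusted p = 0.585), and Cd44 at 40.1 and 51.9 in mutants and 26 and 57.7 in controls (edgeR adjusted p = 0.766).

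Of 12 genes for mineral handling, 10 were tested, 3 rose and 3 fell, with a median of -0.08. Mgp, which encodes an inhibitor of calcification, rose by 1.28 ± 0.32 (log2; edgeR adjusted p = 0.00772), Ank, a pyrophosphate exporter gene, by 0.81 ± 0.19 (edgeR adjusted p = 0.00573) and Sost, the gene of the osteocyte Wnt inhibitor sclerostin, by 3.79 ± 0.98 (edgeR adjusted p = 0.0097) on 47 and 207 UMIs in mutants and 1 and 0 in controls. Smpd3, a sphingomyelinase gene needed for bone mineral, fell by 0.95 ± 0.16 (log2; edgeR adjusted p = 3.47e-04), Phospho1, a phosphatase gene of matrix vesicles, by 1.16 ± 0.39 (edgeR adjusted p = 0.0432) and Slc20a2, a phosphate transporter gene, by 1.10 ± 0.22 (edgeR adjusted p = 0.00152). Alpl, Smpd3, Sost, Phex, Runx2 and Sp7 were also gate markers. Alpl, the alkaline phosphatase gene, was at 566 and 608 CPM in mutants and 455 and 582 in controls (edgeR adjusted p = 0.901).

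All 12 transcription factor genes of the bone lineage were tested, and 1 fell, Twist1, at 106 and 102 CPM in mutants and 222 and 125 in controls (log2 -0.86 ± 0.21, edgeR adjusted p = 0.00604). The list's median was -0.23. Runx2, whose product binds the RUNX core marked in the Spp1 and Mepe windows, was at 190 and 220 in mutants and 195 and 230 in controls (log2 -0.20 ± 0.18, edgeR adjusted p = 0.465). Sp7 was at 174 and 264 in mutants and 185 and 203 in controls (edgeR adjusted p = 0.961). Of 7 genes listed as neighbours of the family, 6 were tested and 1 rose, Hsd17b11, at 22.1 and 15.1 in mutants and 7.01 and 10.2 in controls (log2 1.18 ± 0.30, edgeR adjusted p = 0.00945). Of these 7, Abcg2 and Ppm1k lie on mouse chromosome 6. The median of this list was 0.62, and Pkd2, beside Spp1 at chr5:104459450-104505819, was at 57.9 and 48.9 in mutants and 27.9 and 41.0 in controls (log2 0.57 ± 0.24, edgeR adjusted p = 0.102).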

How the data were processed

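The authors' deposited matrices hold raw UMI counts per gene and barcode, not normalized. Per the submitters' processing notes, Cell Ranger 5.0.1 (control 1, mutant 1) or 6.1.2 (control 2, mutant 2) was used with mm10, and this split is called batch 1 and batch 2; some matrix headers name other versions. The files of mutant 1 list called barcodes only. Cells were kept at 1000 or more UMIs, 500 or more genes and at most 10% mitochondrial UMIs; the top 0.8% per 1000 cells by Scrublet score (scanpy 1.11.5) was removed, which took 55 and 168 mutant and 270 and 106 control cells. A marker was on with a UMI and a level over 20% of its free RNA level; a class needed 3 markers on (subtypes 2) and a lead of 10% of the list over the next class. Counts summed per library and gate were tested with edgeR 4.0.16 (TMM, filterByExpr, quasi-likelihood, Benjamini-Hochberg over all genes, threshold 0.05), with DESeq2 1.42.0 as an alternative. On simulated bone-gated counts of 12916 genes, 34.3% of log2 changes of 1 and 84.2% of changes of 2 were called, with 0 false calls. Like counts for chondrocyte-gated against bone-gated cells gave 8 false calls over 9658 genes. Those for osteocyte-gated against mature osteoblast-gated cells gave 5 over 9837. The simulated counts gave every gene the same spread and held no batch or makeup difference, so they cannot give the rate of false calls in the measured libraries. That rate was not tested. Genes named outside the 4 passed the test in a list, act directly on the proteins, or had one of the 3 highest correlations. Genes and lists were chosen with earlier results of these data known. Libraries were grouped by their genotype labels and numbered in accession order; the numbers coincide with the processing batches, and genotype fits had batch, with 1 mutant and 1 control library in each, as a block.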

Additional observations from a re-analysis of the deposited data

Results flagged for a closer look

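The genotype difference was smaller in bone-gated than in endothelial-gated cells for all 4 genes, by a test of the difference itself in 1 edgeR fit with library and class as terms, where 2.11% of 12754 genes were called lower. Adjusted p was 1.04e-04 for Spp1 (log2 difference of differences -4.34 ± 0.84), 0.00264 for Ibsp (-3.88 ± 0.92), 0.0130 for Mepe (-2.98 ± 0.81) and 1.76e-08 for Dmp1, whose endothelial controls had no UMI. Spp1 and Ibsp kept the call without mutant 1 and lost it without each of the other libraries, Dmp1 lost it without control 2, and Mepe lost it without control 2 and without mutant 2, where the difference turned to 6.62 with an adjusted p of 0.799. The endothelial levels behind this are low, at 256 and 582 Spp1 CPM in mutants and 11.7 and 11 in controls, and free RNA of mutant 2 moved with them. In batch 1 the order did not hold for Ibsp, with log2 differences of 1.36 in bone-gated and 1.25 in endothelial-gated cells. Mepe had no UMI in endothelial-gated cells of mutant 1 and control 1. Dmp1 held 3 UMIs there in mutant 1 and none in control 1, where 3 UMIs would have given 17.5 CPM. For Ibsp and Mepe the smaller difference in bone-gated cells thus rests on batch 2, and for Dmp1 batch 1 alone sets no bound.

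Signals also appeared outside the comparisons. Free RNA of mutant 2 exceeded both controls for each gene, at 14280 CPM for Spp1, 4042 for Ibsp, 549 for Dmp1 and 515 for Mepe, against 2539 and 284, 503 and 30.2, 89.4 and 4.48, and 8.78 and 1.12 in controls. Cells that met no gate (120 and 73 in mutants, 213 and 115 in controls) held 73910 and 4928 Spp1 CPM in mutants and 179 and 4.55 in controls. The same cells held 878 and 89.1 Ibsp CPM in mutants and 12.8 and 0 in controls, 3607 and 408.2 for Dmp1 in mutants and 2.74 and 0 in controls, and 2560 and 309 for Mepe in mutants and 1.82 and 0 in controls. In 45 and 9 of these mutant cells, against 12 and 0 of the control cells, the bone list led without meeting the gate.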

How the results depend on the processing

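For bone-gated cells, 31 of 52 alternatives over the 4 genes kept direction and call, 21 lost the call and none turned the sign. Without the batch term the log2 differences were 0.99 for Spp1, 1.25 for Ibsp and 0.59 for Dmp1, none called; DESeq2 gave 0.87 for Spp1, not called; without osteocyte-gated cells Dmp1 gave 0.081, not called. Leaving out 1 library, in genotype fits without the batch term, gave ranges of 0.24 to 1.51 for Spp1, 0.82 to 1.62 for Ibsp, 0.51 to 0.70 for Dmp1 and 2.06 to 2.50 for Mepe. Genes called in bone-gated cells numbered 1482 higher and 1140 lower; without the batch term 638 and 434, with DESeq2 592 and 492, and without 1 library 0 to 19 higher and 0 to 45 lower, where 1665 to 2960 genes had an unadjusted edgeR p under 0.05. Without mutant 1 both counts were 0, with 1665 genes at an unadjusted p under 0.05.

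In the mesenchymal sum Spp1 gave 1.92 without the batch term, not called, and without 1 library 1.20 to 2.46 for Spp1, 2.03 to 2.87 for Ibsp and 1.45 to 2.23 for Dmp1, with 1, 2 and 2 of 4 fits called. In mature osteoblasts Spp1 gave 1.48 and Ibsp 1.73 without the batch term, not called; without 1 library the ranges were 0.31 to 2.10 for Spp1, 1.19 to 2.14 for Ibsp and -0.23 to 0.82 for Dmp1, which turned sign without control 1. Endothelial Spp1 ranged from 4.50 to 5.72 and Ibsp from 3.77 to 6.38, over 4 and 3 fits, since without mutant 2 Ibsp did not reach the filter. The bone minus endothelial difference ranged from -5.52 to -2.95 for Spp1, -5.37 to -1.18 for Ibsp, -10.03 to -8.14 for Dmp1 and -7.84 to 6.62 for Mepe, which turned sign without mutant 2; called fits numbered 1, 1, 3 and 2 of 4. Leaving out mutant 2 leaves 46 mutant endothelial cells, and the cause of the other losses was not tested.

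Of 144 alternatives for classes and subtypes, 138 kept direction and call. Progenitor over mature osteoblast was called without the low-count filter for Spp1 (0.44) and Dmp1 (-0.96), Dmp1 ranged from -1.96 to -0.51 without 1 library, and Mepe, not called, lay at 0.0095 with DESeq2 size factors, 0.0049 without the filter and -0.22 to 0.050 without 1 library. Thinning to 3000 UMIs moved the mutant minus control share to 10.1 points for Dmp1 and 16.7 for Mepe, against 6.3 and 9.73 at 1000 UMIs. In the other comparisons, 54 of 126 counts of called genes moved by more than 1.5 times, 53 of them downwards. The labels carry no replicate numbers; processing batch, which holds 1 mutant and 1 control library each, was the block of the genotype fits as reported, and the fits without the batch term are those without this block. Cell number limits control 2, with 43 bone-gated cells at a median of 23660 UMIs.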
